A study of Mus musculus with 8 samples.

Results

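The nuclear genes of oxidative phosphorylation were followed across the cell types of the mouse hippocampus at postnatal day 21 and across 2 maternal folic acid diets. The genes were chosen by symbol: Ndufa, Ndufb, Ndufc, Ndufs and Ndufv genes, Sdha to Sdhd, Uqcr genes, the Cox4 to Cox8 genes and Atp5 genes. The rule found 84 of the 32285 genes measured, of which 37 belong by their prefix to complex I, 4 to complex II, 8 to complex III, 18 to complex IV and 17 to complex V. The rule left out 1 pseudogene symbol, Ndufb1-ps, which held 4822 unique molecular identifiers (UMIs), and it does not match Ndufab1 or Atpif1. The rule used no measured value.

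Oxidative phosphorylation is the last stage of respiration in the mitochondrion. Complex I (NADH dehydrogenase) and complex II (succinate dehydrogenase, also an enzyme of the TCA cycle) pass electrons to ubiquinone, complex III passes them on to cytochrome c, and complex IV (cytochrome c oxidase) hands them to oxygen. The proton gradient that complexes I, III and IV build drives complex V, the ATP synthase. Most subunits are encoded in the nucleus, while 13 are encoded by mitochondrial DNA (mtDNA), and complex II alone has no mtDNA subunit. Neurons rely on this pathway for the ATP that ion pumping uses, and astrocytes are known to combine it with active glycolysis.

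Wild-type C57BL/6J dams received a diet with 2 mg/kg folic acid (MF) or 20 mg/kg folic acid (HF) from 2 weeks before mating until the end of lactation. The dams were 8 weeks old by the results of the source paper, while its methods give an age range that starts at 8 weeks. Hippocampi of their male pups were taken at postnatal day 21. Nuclei were profiled for RNA and open chromatin together (single-nucleus multiome, 10x Genomics), in 2 libraries per diet, called MF1, MF2, HF1 and HF2 here. How many pups or litters went into a library is not given in the sources used here. The p-values between diets therefore measure the spread between libraries, which may be in part technical. The 4 libraries hold 14297 nuclei, of which 11518 passed the filters (2249 to 3473 per library, with 20151562 to 29243072 UMIs), and 76 barcodes occurred in more than 1 library.

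Clusters were named only from marker genes, and the names stand for CA1-like, CA3-like, mature dentate granule-like (DG-M), immature dentate granule-like (DG-i), inhibitory neuron-like (INH), astrocyte-like (AST), oligodendrocyte precursor-like (OPC), oligodendrocyte-like (ODC) and microglia-like (MG) nuclei. EXC is the mean of CA1, CA3 and DG-M. The members of the gene set were left out of the genes used for clustering. Of the markers listed for each type, 9 of 10 were highest in CA1, 9 of 12 in CA3, 9 of 13 in DG-M, 12 of 12 in DG-i, 9 of 10 in INH, 13 of 13 in AST, 9 of 9 in OPC, 12 of 12 in ODC and 11 of 11 in MG. The types held 527 (CA3) to 1922 (DG-M) nuclei each. Another 1317 nuclei in 8 clusters with high doublet scores and 1481 nuclei in 5 clusters without enough markers entered no type. When inhibitory and vascular nuclei were clustered again, 1 further cluster of each had a high doublet score, which left 571 of 762 INH nuclei (191 set aside) and 131 of 144 vascular nuclei (13 set aside).

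One feature of the libraries touches every value below. The summed level of the 84 genes was lowest in HF2 in 9 of 9 types and highest in HF1 in 8 of 9 types, with AST highest in MF1, and the highest library exceeded the lowest 1.45- to 1.74-fold. Ribosomal protein genes were lowest in HF2 in 9 of 9 types too, with ratios of 1.53 to 2.13. Haemoglobin RNA, a marker of red blood cells, was highest in MF1 in 9 of 9 types, reaching 14842 normalised counts (CPM, defined below) in OPC against 408 to 571 CPM in the OPC of the other libraries. The part of these differences in the results was not tested. Type contrasts were fitted with the library as a block, so that they compare types within libraries. Their p-values do not measure the spread between libraries. They measure the spread that remains once library differences are taken out, estimated in a joint fit of the 9 types. The inhibitory subtypes below had a fit of their own.

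Levels are UMI counts summed per library and type, as CPM, that is scaled to a common library total corrected by the trimmed mean of M values (TMM). The correction sets a level apart from a plain share of the UMIs, on which the types stand in another order, given below. On the TMM scale AST nuclei had the highest summed level of the 84 genes, at 10237 CPM (MF1), 7681 CPM (MF2), 10025 CPM (HF1) and 7059 CPM (HF2), with a mean of 8750 ± 1616 CPM (SD, n = 4 libraries). In each library AST stood above every other type, although the groups overlapped when libraries were pooled. CA1 had 6013, 5352, 7216 and 4618 CPM in the same order (5800 ± 1103), CA3 a mean of 5743 ± 1202 CPM and ODC 5808 ± 1441 CPM, and these 3 lowest types lay within their spread. INH followed with 6189 ± 1352 CPM. OPC (6939 ± 1482), DG-M (6944 ± 1574), MG (7148 ± 1506) and DG-i (7259 ± 1759 CPM) formed a middle group whose neighbours did not differ beyond the spread.

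By complex, complex I summed to 3302 ± 510 CPM in AST and to 2128 ± 374 CPM in CA1. Complex II summed to 319 ± 31.8 CPM in AST (360, 311, 321 and 284 CPM in MF1, MF2, HF1 and HF2) and to 203 ± 24.8 CPM in DG-i, the lowest type. The lowest AST library for complex II lay above all 4 libraries of CA1 (207, 218, 242 and 210 CPM), so that these groups did not overlap. Complex III ranged from 514 ± 114 CPM in CA3 to 761 ± 150 CPM in AST, complex IV from 1379 ± 307 CPM in CA1 to 2113 ± 544 CPM in AST, and complex V from 1505 ± 359 CPM in ODC to 2255 ± 399 CPM in AST. All 5 complexes were thus highest in AST by this scale. Of 78 genes with enough counts to be tested, 60 had their highest mean level in AST and 8 in MG, while 29 had their lowest in ODC, 23 in CA3 and 12 in CA1. The same was not counted over all genes, so that these numbers have no share to be read against. Most genes moved little: for the 76 genes with over 3 UMIs in every type, the highest type mean exceeded the lowest 1.35- to 3.92-fold, with a median of 1.71. Ndufc2 stood at 3.92, and the next gene, Sdhd, at 2.36.

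**Figure D1:**
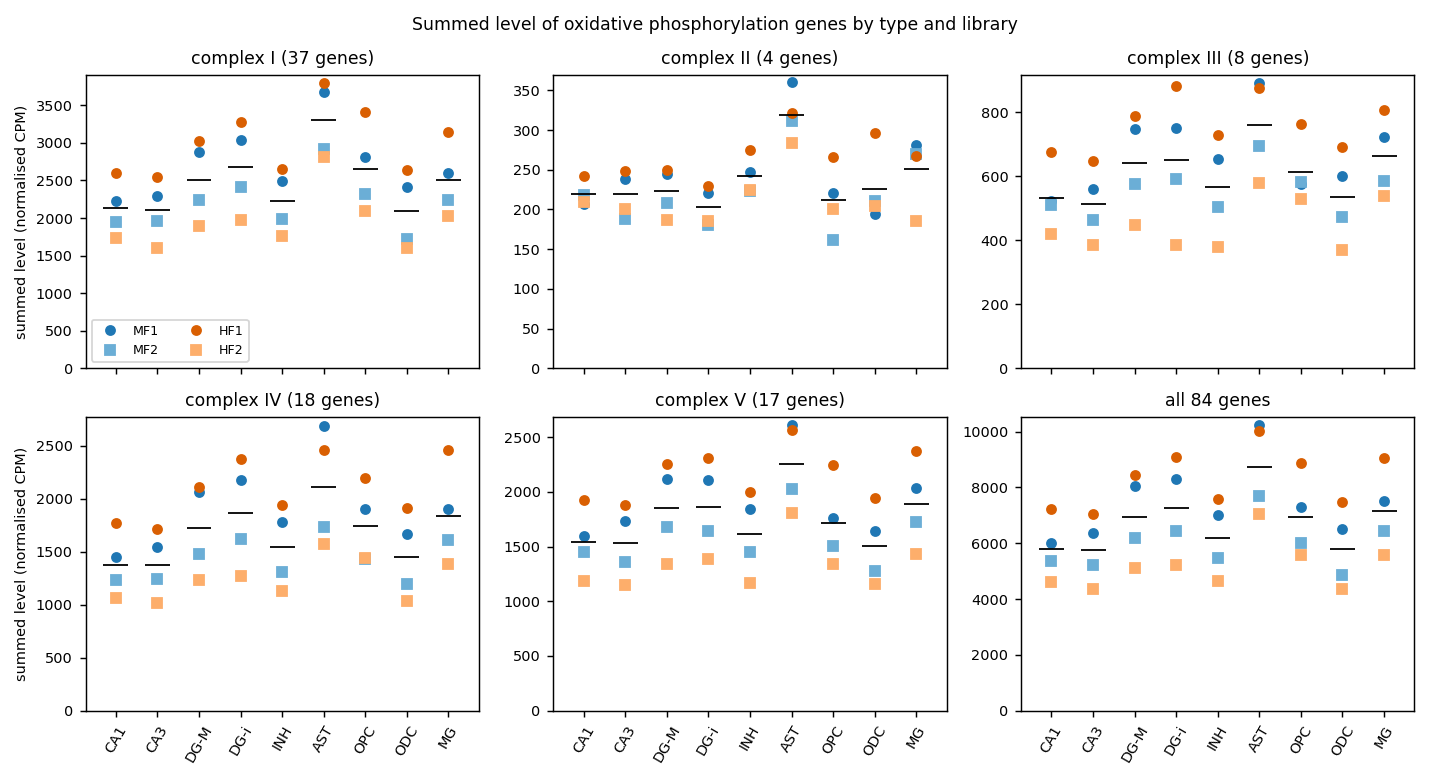
Summed level of the genes of each complex and of all 84 genes (vertical axis, TMM-normalised CPM) in 9 types (horizontal axis). Points are the 4 libraries and lines their means. AST is highest in each panel (8750 CPM for all 84 genes), and HF2 is the lowest library for all 84 genes in 9 of 9 types. Counted per nucleus instead, AST had fewer of these UMIs (24.4) than CA1 (66).

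The order depends on what the counts are divided by. A nucleus of AST held 24.4 UMIs of the 84 genes and one of MG 17.6, against 66 in CA1 and 95.5 in CA3, since total UMIs per nucleus ran from 1853 in MG to 18618 in CA3. As a share of all UMIs, the 84 genes took 0.493% in CA1, 0.513% in CA3, 0.56% in ODC, 0.608% in INH, 0.677% in DG-M, 0.76% in OPC, 0.871% in AST, 0.875% in DG-i and 0.952% in MG. Which of RNA content and capture sets the UMIs of a nucleus cannot be told apart here. The differences below are on the TMM scale, and the count on the per-nucleus scale stands beside each. Per nucleus the median log2 difference of all genes shifted as well. Against EXC it was -2.03 in AST, -1.70 in OPC, -1.42 in ODC, -2.36 in MG and -0.13 in INH. It was 0.54 in CA3 and -0.44 in DG-M against CA1, -1.02 in DG-i against DG-M and 0.22 in ODC against OPC.

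Promoters of 6 members are shown here because later results turn on these genes. They are stretches of 300 bases, from 250 bases before to 50 bases after the gene start, from RefSeq on GRCm38.p6 and written 5′ to 3′ on the gene's strand. Entries were found for 67 of the 84 members. Capitals mark matches on either strand to the cores of 4 motifs: NRF1 (GCGCATGCG), ETS (CCGGAAG), YY1 (AAGATGGCG) and SP1 (GGCGGG). The NRF1 core overlaps its own reverse complement, so that 1 site can match on both strands. Ndufc2 (chr7:97399753-97400052, plus strand) held none of the 4, Cox6a1 (chr5:115348909-115349208, minus strand) held NRF1, SP1 and ETS, Atp5g2 (chr15:102670998-102671297, minus) held NRF1 and SP1, Ndufs6 (chr13:73328433-73328732, minus) held SP1 at 2 places and YY1, and Ndufa10 (chr1:92473709-92474008, minus) and Cox6b2 (chr7:4753045-4753344, minus) held SP1 alone.
Ndufc2: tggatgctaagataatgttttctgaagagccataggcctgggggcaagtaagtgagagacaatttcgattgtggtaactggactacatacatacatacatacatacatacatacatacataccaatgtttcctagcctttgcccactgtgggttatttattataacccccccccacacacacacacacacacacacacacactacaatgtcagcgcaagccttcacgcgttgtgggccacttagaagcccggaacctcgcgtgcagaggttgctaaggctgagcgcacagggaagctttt
Cox6a1: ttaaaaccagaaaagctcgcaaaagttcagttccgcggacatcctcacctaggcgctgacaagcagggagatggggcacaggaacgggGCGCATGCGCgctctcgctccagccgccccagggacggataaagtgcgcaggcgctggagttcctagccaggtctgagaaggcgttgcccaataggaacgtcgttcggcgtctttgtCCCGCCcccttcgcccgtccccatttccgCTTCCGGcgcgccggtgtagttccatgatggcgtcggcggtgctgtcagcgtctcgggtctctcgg
Atp5g2: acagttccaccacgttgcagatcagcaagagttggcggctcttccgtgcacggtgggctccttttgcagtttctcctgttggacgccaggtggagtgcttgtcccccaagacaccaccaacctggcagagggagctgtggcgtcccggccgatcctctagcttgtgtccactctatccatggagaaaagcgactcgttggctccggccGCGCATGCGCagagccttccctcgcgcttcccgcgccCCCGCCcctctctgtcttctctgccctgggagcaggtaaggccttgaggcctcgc
Ndufs6: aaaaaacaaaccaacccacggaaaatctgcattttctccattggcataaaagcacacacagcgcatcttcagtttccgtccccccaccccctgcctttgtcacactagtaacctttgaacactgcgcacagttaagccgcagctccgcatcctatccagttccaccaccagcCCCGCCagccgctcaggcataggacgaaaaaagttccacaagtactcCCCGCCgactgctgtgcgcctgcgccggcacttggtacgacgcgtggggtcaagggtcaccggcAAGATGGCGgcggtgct
Ndufa10: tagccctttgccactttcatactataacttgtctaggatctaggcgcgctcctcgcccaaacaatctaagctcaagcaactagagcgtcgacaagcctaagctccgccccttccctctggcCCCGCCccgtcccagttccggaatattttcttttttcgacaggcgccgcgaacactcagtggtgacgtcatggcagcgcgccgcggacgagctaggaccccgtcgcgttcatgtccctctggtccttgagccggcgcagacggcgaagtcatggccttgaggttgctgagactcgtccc
Cox6b2: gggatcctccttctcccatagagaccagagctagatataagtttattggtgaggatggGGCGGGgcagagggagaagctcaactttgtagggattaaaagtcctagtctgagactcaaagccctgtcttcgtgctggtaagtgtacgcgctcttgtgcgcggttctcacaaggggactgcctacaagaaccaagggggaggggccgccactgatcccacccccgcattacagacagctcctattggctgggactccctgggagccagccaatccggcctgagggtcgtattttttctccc

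NRF1, the ETS factor GABP, YY1 and SP1 are known regulators of respiratory genes. The NRF1 core occurred in 8 of the 67 member promoters (11.9%) and in 1.95% of all 27025 promoters of the same length, and the YY1 core in 7 (10.4%) and in 1.64% of all. The ETS core occurred in 17 (25.4%, against 9.93% of all) and the SP1 core in 37 (55.2%, against 37.9%). At least 1 of the 4 was present in 48 member promoters and none in 19. A match describes the letters and no binding was measured.

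On the TMM scale, astrocyte-like nuclei had the most members higher than in excitatory neurons. Of 78 members tested, 67 (85.9%) were higher in AST than in EXC and 1 was lower, with a median log2 difference of 0.50 against -0.01 over all 12964 genes, whereas per nucleus 1 was higher and 77 were lower (median -1.54, all genes -2.03). With library totals in place of TMM, 73 were higher in AST and 71 in MG, and the median was larger in MG (0.75) than in AST (0.64). The median of all genes was larger in MG too (0.40, and 0.13 in AST). Relative to all genes the members stood at 0.34 in MG and 0.51 in AST. With TMM, 31.3% of all genes tested were called higher in AST and 31.5% lower (edgeR quasi-likelihood F test, Benjamini-Hochberg adjusted p under 0.05 and at least 1.2-fold). The calls covered 29 of 36 tested genes of complex I, 4 of 4 of complex II, 5 of 8 of complex III, 12 of 13 of complex IV and 17 of 17 of complex V. Leaving out 1 library at a time gave 62 to 66 members higher and 1 or, without HF2, 2 lower.

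Ndufc2, a small membrane-arm subunit of complex I, showed the clearest difference (gene at chr7:97400003-97407802, plus strand, GRCm38). Its level was 333, 244, 366 and 243 CPM in the AST of MF1, MF2, HF1 and HF2, against 79.6, 72.2, 97.9 and 53.3 CPM in CA1. No library of any other type reached the lowest AST library. The log2 difference to EXC was 1.70 ± 0.08 (SE, adjusted p = 2.27e-28), and -0.33 per nucleus. Thrsp, a lipid metabolism gene that lies next to it on the opposite strand (chr7:97412938-97417730), had 116 CPM in AST and 5.53 to 22.2 CPM elsewhere, while Alg8 on the other side had 11.5 to 22 CPM in all 9 types. Whether reads that run past the end of 1 gene are counted in its neighbour was not tested.

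Other complex I subunits rose less in AST. Ndufa13, an accessory subunit also known as GRIM-19, was at 185, 171, 214 and 150 CPM in the AST libraries and at 100, 95.3, 124 and 65.9 CPM in CA1, a log2 difference to EXC of 0.89 ± 0.09 (adjusted p = 3.30e-14). Every AST library stood above all CA1 libraries. Some of the core subunits encoded in the nucleus carry the flavin or the iron-sulphur clusters. Among these core subunits, Ndufs7 (0.67), Ndufs8 (0.48) and Ndufs1 (0.36) were called higher, while Ndufv2 (0.21), Ndufv1 (0.12) and Ndufs3 (0.09) did not pass. The other calls counted under this complex by prefix were accessory subunits and Ndufa4, described below. Without HF1 (0.46) or HF2 (0.41) Ndufs8 was not called.

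All 4 genes of complex II were called higher in AST. Sdha, the flavoprotein that oxidises succinate, differed from EXC by 0.60 ± 0.10 on the log2 scale, with 148, 135, 127 and 121 CPM in AST and 75.1, 85.4, 93.9 and 101 CPM in CA1. Sdhb, the iron-sulphur subunit, differed by 0.29 ± 0.10 (not called without HF1), and the membrane anchors Sdhc and Sdhd by 0.61 ± 0.13 and 0.54 ± 0.15. In complexes IV and V the common isoforms rose together: Cox6a1 by 0.83 ± 0.09, Cox7a2 by 0.65 ± 0.09, Cox4i1 by 0.61 ± 0.07, Cox8a by 0.58 ± 0.07, Cox6b1 by 0.52 ± 0.09, Cox7b by 0.41 ± 0.09 and Cox6c by 0.40 ± 0.08. The 3 genes of the identical c subunit of the ATP synthase rotor, Atp5g1, Atp5g2 and Atp5g3, rose by 0.32 ± 0.09, 0.51 ± 0.11 and 0.31 ± 0.10, and without MF2 Atp5g1 (0.25) and Atp5g3 (0.26) were not called. Ndufa4, named for complex I but now known as a subunit of complex IV, rose by 0.65 ± 0.08. Per nucleus each of these genes was lower in AST instead, from -1.21 (Cox6a1) to -1.75 (Sdhb). The values are on the TMM scale, on which Cox7a2l was the 1 member lower in AST (-0.53 ± 0.12, adjusted p = 0.000143). Cox7a2l, known for joining complexes III and IV into supercomplexes, had 66.3, 46, 48.4 and 41.6 CPM in AST. It had 69.2, 53.1, 75.1 and 47.8 CPM in CA1, 84.7, 68.9, 69.9 and 63.3 CPM in CA3, and 94.4, 74.8, 83.6 and 76.1 CPM in DG-M, so that AST overlapped CA1 and CA3 but not DG-M, although it was lowest of these types within each library.

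Other genes of the mitochondrion moved unevenly in AST. The 13 mtDNA genes were all called higher (median 0.78), as were 8 of 16 TCA cycle genes against 1 lower (median 0.28). Among the TCA cycle genes were Suclg2 (2.94) and Suclg1 (1.06), subunits of succinyl-CoA ligase. The libraries are of nuclei, kept only with mitochondrial UMIs under 2%. The part of RNA from outside the nucleus in the mtDNA values, here and in the other types, was not tested. Of 43 tested assembly factors, 9 were higher and 5 lower. Glycolysis genes split, with 5 higher and 5 lower of 16, led by Aldoc (3.06), an astrocyte-enriched aldolase, and Eno2 (-1.55), the neuronal enolase. Among 13 regulators, 3 were higher and 5 lower. The higher ones were Ppargc1a (1.68), which encodes the coactivator PGC-1alpha, Nrf1 (1.12) and Tfb1m (0.79), and the lower ones Ppargc1b (-5.15), the paralog of Ppargc1a, Esrrg (-2.36), Tfam (-0.77), Pprc1 (-0.75) and Gabpb1 (-0.57). Ribosomal protein genes, by contrast, had a median of 0.10, with 14 of 92 higher and 8 lower. The summed level of 4 excitatory neuron markers (Slc17a7, Camk2a, Nrgn and Sv2b) was 489 to 901 CPM in AST and 2687 to 2891 CPM in CA1, and all 4 haemoglobin genes were called higher in AST (median 1.36). Their part in these values was not tested.

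**Figure D2:**
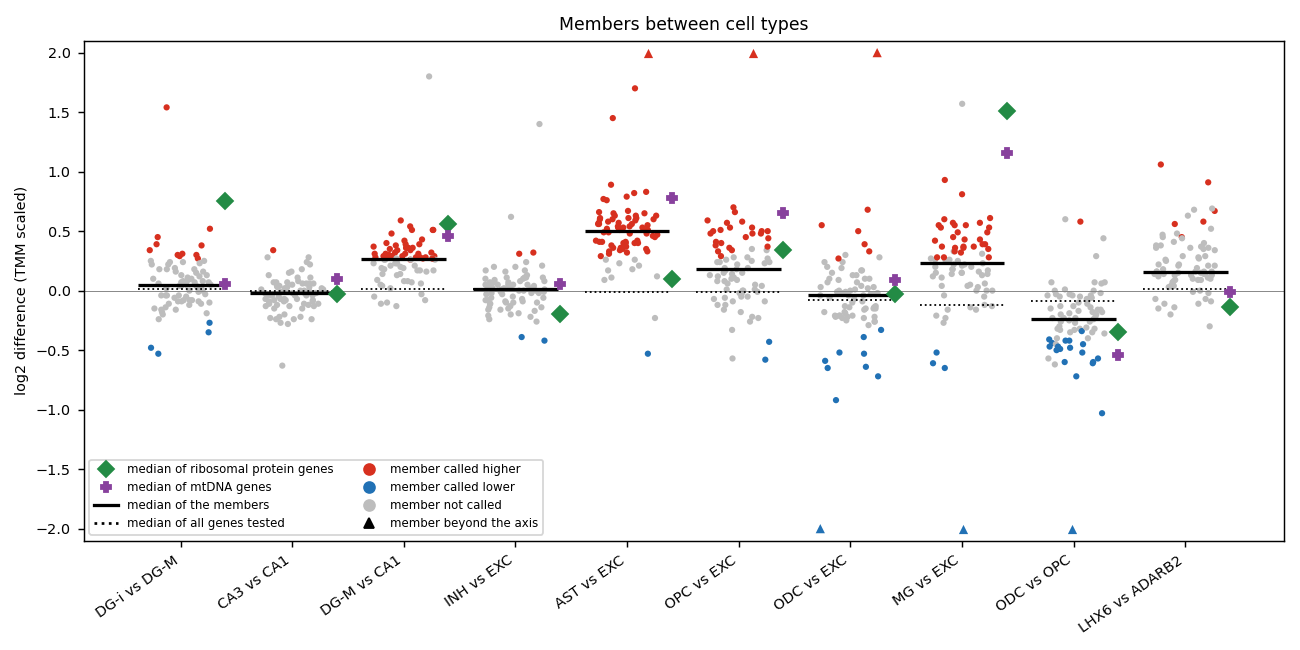
Log2 difference of each tested member (vertical axis, TMM-scaled) in 10 contrasts between types (horizontal axis). Red and blue points are members called higher or lower, grey points are not called, triangles lie beyond the axis, solid lines are member medians, dotted lines are medians of all genes, and diamonds and crosses are medians of ribosomal protein and mtDNA genes. The AST contrast has 67 red points and a median of 0.50, while per nucleus 77 of 78 members were lower in AST.

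In oligodendrocyte precursors fewer members were called. Of 78 members, 25 (32.1%) were higher in OPC than in EXC and 2 lower (all genes 25% higher and 25% lower; member median 0.18, all genes -0.01), whereas per nucleus 1 was higher and 77 were lower. Complex I held 15 of the 25, complex IV 5, complex V 3, complex III 2 and complex II none. Ndufb7, an intermembrane-space subunit of complex I, was higher by 0.70 ± 0.14 (adjusted p = 3.17e-05), Ndufa13 by 0.66 ± 0.10 and Ndufa2 by 0.59 ± 0.15. Ndufa13 had 182, 145, 168 and 120 CPM in OPC and overlapped CA1 at its lowest library only. Cox7a2l (-0.58 ± 0.15) and Ndufa10 (-0.43 ± 0.13) were lower, and without MF1 neither was called. With library totals in place of TMM, 53 members were higher and 0 lower (member median 0.44, all genes 0.24), and Cox7a2l (-0.33, adjusted p = 0.0761) and Ndufa10 (-0.17, adjusted p = 0.287) were not called. Without HF1, 15 members were higher, and without HF2, 4 were lower. Among the other lists, 11 of 13 mtDNA genes and 55 of 92 ribosomal protein genes were higher, while 6 of 16 TCA cycle genes were lower and 1 higher. All 4 haemoglobin genes were higher as well (median 2.67), and their part in these counts was not tested.

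Oligodendrocyte-like nuclei did not show that rise. Relative to EXC, 7 of 78 members (8.97%) were higher and 10 (12.8%) lower, against 27.9% and 32.3% of all genes, with a median of -0.04 (all genes -0.08), whereas per nucleus 77 were lower. Without MF1, 3 were higher. Ndufa10, an accessory subunit of complex I, fell most among members with counts in every type: its levels were 58, 30.1, 42.5 and 48.6 CPM in ODC and 98.9, 78.5, 86.5 and 81.5 CPM in CA1, with no overlap (-0.92 ± 0.13, adjusted p = 1.07e-08). Cox7a2l (-0.72 ± 0.14) and Ndufs4, an accessory subunit known from Leigh syndrome (-0.65 ± 0.10), were lower too. The core subunits Ndufs3 (-0.59 ± 0.15) and Ndufv2 (-0.52 ± 0.12) were lower while Ndufs8 (0.55 ± 0.18) was higher, so that core genes of 1 complex moved in opposite directions. Without MF1, Ndufs8 lost its call (0.41, adjusted p = 0.12). The call was also lost at a higher clustering resolution (0.30, adjusted p = 0.132) and without the library block (0.60, adjusted p = 0.0891). Ndufa3 (0.68 ± 0.15) and Sdhc (0.50 ± 0.14) were higher, and Sdhd, the partner of Sdhc in the membrane anchor, was lower (-0.64 ± 0.22), a call lost without MF1 (-0.46).

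Within the oligodendrocyte lineage, 19 of 78 members (24.4%) were lower in ODC than in OPC and 1 was higher, while 25.7% of all genes were lower and 20% higher (member median -0.24, all genes -0.09), whereas per nucleus 2 were lower and 3 higher. With library totals in place of TMM, 51 members were lower and 0 higher (member median -0.45, all genes -0.29). On the TMM scale complex I held 13 of the 19. Ndufa1, an accessory subunit encoded on the X chromosome, fell by 1.03 ± 0.24, Ndufs6, a zinc-binding subunit, by 0.72 ± 0.23, and Ndufa13 by 0.61 ± 0.14. The level of Ndufa1 in OPC was 55.7, 24.5, 106 and 23.6 CPM and that in ODC 28.3, 38.3, 32.4 and 16.2 CPM, which overlap. Without HF1 the lower count was 11 and Ndufa1 (-0.48, adjusted p = 0.229) and Ndufs6 (-0.33, adjusted p = 0.407) were no longer called, and without HF2 it was 10. Sdhc was higher by 0.58 ± 0.21, a call lost without MF2 (0.43), HF1 (0.62) or HF2 (0.43) and with library totals (0.37). Of mtDNA genes 10 of 13 and of ribosomal protein genes 38 of 92 were lower, and all 4 haemoglobin genes were lower in ODC.

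Microglia-like nuclei held 30 members (38.5%) higher than EXC and 4 lower, with 29.8% and 35.4% of all genes so called (member median 0.23, all genes -0.12), whereas per nucleus none was higher and 77 were lower. Atp5g2 led, with 141, 115, 128 and 109 CPM in MG and 62.5, 53.1, 70.7 and 44.3 CPM in CA1, without overlap (0.93 ± 0.13, adjusted p = 1.01e-08), while its partners Atp5g1 (0.15) and Atp5g3 (0.26) did not pass. Ndufs8 (0.81 ± 0.20), Ndufa6 (0.61 ± 0.16) and Ndufs6 (0.60 ± 0.18) followed. Ndufs1, the largest core subunit of complex I, was lower by 0.65 ± 0.15, with 65.6, 37, 49.7 and 47.9 CPM in MG and 80.8 to 93.3 CPM in CA1. Ndufa10 (-0.52 ± 0.14) and Ndufv1, the flavin-binding core subunit (-0.61 ± 0.27, adjusted p = 0.0398), were lower as well. With library totals in place of TMM, 71 members were higher and 1 lower, and Ndufs1 (-0.13, adjusted p = 0.449), Ndufv1 (-0.10, adjusted p = 0.776) and Ndufa10 (0.00) were not called. On that scale the median was 0.75 over the members and 0.40 over all genes. The members relative to all genes stood at 0.34 with either scaling. The call on Ndufv1 was lost without any 1 of the 4 libraries (-0.56 to -0.69), and without MF1 only 1 member was lower: Ndufa10 (-0.41) and Cox7b2 lost their calls. Cox7a2l was higher in MG (0.35 ± 0.14, and 0.23 and not called without MF2), the opposite of its direction in the other glia. MG had 86 of 92 ribosomal protein genes higher, with a median of 1.51 against 0.34 in OPC, 0.10 in AST and -0.03 in ODC. Of mtDNA genes 13 of 13 were higher (1.16), as in AST (0.78), with 11 of 13 in OPC (0.65) and 0 in ODC. In MG 6 of 16 TCA cycle and 9 of 16 glycolysis genes were lower. These counts were 7 and 10 in ODC, 6 and 6 in OPC, and 1 and 5 in AST. Neuron markers summed to 409 to 622 CPM in MG, and 4 of 4 haemoglobin genes were higher (median 1.03). Their part in the result was not tested.

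Across the 4 glial types, Cox6a1, Ndufa7 and Ndufs8 were called higher than EXC in each, while Cox7a2l and Ndufa10 were called lower in at least 3 of them, and per nucleus Cox6a1 (-1.09 to -1.91), Ndufa7 (-0.97 to -1.73) and Ndufs8 (-0.82 to -1.57) were lower. The AST, OPC, ODC and MG contrasts share the same EXC samples, so that these calls are not independent. Of all genes, 31.3% were higher in AST, 25% in OPC, 27.9% in ODC and 29.8% in MG. The share of all genes called in several of these contrasts was not counted, so that these members cannot be set against it. Several were lost without 1 library: Cox6a1 in ODC without MF1, HF1 or HF2 (0.22 to 0.26) and in MG without HF1 (0.26), Ndufa7 in OPC without HF1 (0.33), and Ndufs8 in OPC without MF1, MF2 or HF2 (0.37 to 0.51). Cox6a1 in ODC also lost its call with DESeq2 (0.26) and with scaling by relative log expression (0.26). The same held without the low-count filter (0.24), the library block (0.29) or nuclei over the doublet score (0.26). Without MF1, Cox7a2l lost its call in OPC and Ndufa10 in OPC and MG. With library totals in place of TMM the same calls were lost. In MG Cox7a2l was called higher. Cox6a1 had means of 172 CPM in AST, 129 in OPC, 125 in MG, 113 in ODC and 86.4 in CA1.

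Dentate granule neurons stood above CA1. In DG-M, 40 of 78 members (51.3%) were higher than in CA1 and none lower, against 20.2% and 21.4% of all genes (member median 0.27, all genes 0.01), whereas per nucleus none was higher and 22 were lower. At an unadjusted p under 0.05, 53 members and 6404 of 12964 genes differed. With library totals in place of TMM, 65 members were higher (median 0.45, all genes 0.19). The calls were spread over complex I (17 of 36), II (1 of 4), III (4 of 8), IV (8 of 13) and V (10 of 17). Ndufa1 was higher by 0.59 ± 0.13, Uqcrb, a small subunit of complex III, by 0.54 ± 0.11, Cox6c by 0.51 ± 0.08 and Ndufa4 by 0.51 ± 0.09. Cox6c had 215, 167, 239 and 127 CPM in DG-M and 142, 95.3, 188 and 100 CPM in CA1, so that DG-M was higher within each library although the groups overlapped. Without the library as a block 1 member was called, and without MF1 22 were. Ribosomal protein genes (79 of 92 higher) and mtDNA genes (12 of 13 higher) moved in the same direction, as did 4 of 4 haemoglobin genes (median 1.08), while Ppargc1a was lower (-0.86). Their part in the result was not tested.

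Immature granule neurons differed from mature ones at a number of members that depended on the scale. In DG-i, 11 members (14.1%) were higher than in DG-M and 4 (5.13%) lower, below the 21.9% and 21.5% of all genes, whereas per nucleus 77 were lower and with library totals in place of TMM 42 were higher and 1 lower. All genes moved with the scale too. Per nucleus the median was -0.99 over the members and -1.02 over all genes, and with library totals it was 0.32 and 0.27. The higher count was 3 without the low-count filter, 4 without MF1, 7 without HF1 and 5 without HF2. Ndufc2 was higher by 0.52 ± 0.10 (175, 155, 173 and 103 CPM in DG-i, and 124, 94.1, 137 and 68.3 CPM in DG-M), Ndufs5 by 0.45 ± 0.10 and Ndufa13 by 0.39 ± 0.10. The core subunits Ndufs1 (-0.53 ± 0.12) and Ndufs3 (-0.48 ± 0.13), the accessory Ndufa10 (-0.35 ± 0.11) and Atp5a1, the alpha subunit of the ATP synthase (-0.27 ± 0.10), were lower. With library totals 3 of these 4 were not called, as Ndufs3 stood at -0.22 (adjusted p = 0.168), Ndufa10 at -0.09 (0.555) and Atp5a1 at -0.01 (0.968). Cox6b2, described below, was called higher with 12 UMIs in DG-i and 16 in DG-M (adjusted p = 0.0301), a call lost without MF2 or HF2. Ndufs1 had 60.8, 43.9, 65.5 and 51.7 CPM in DG-i and 73.8 to 92.2 CPM in DG-M, with no overlap. The call on Atp5a1 was lost without MF2 (-0.19). In the same contrast 80 of 92 ribosomal protein genes were higher, no mtDNA gene was called, and the coactivators Ppargc1a (-2.28) and Ppargc1b (-1.72) were lower.

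Pyramidal types and inhibitory neurons differed little at these genes. Between CA3 and CA1, Ndufc2 was the 1 member called (0.34 ± 0.10), with 14% of all genes higher and 12.9% lower, and 5 members at an unadjusted p under 0.05, as were 4629 of 12964 genes. Without MF1 that call was lost (0.32, adjusted p = 0.0588), without HF1 2 members were higher and 1 lower, and per nucleus 72 and with library totals 3 members were higher in CA3. Per nucleus the median was 0.53 over the members and 0.54 over all genes, and with library totals it was 0.06 and 0.08. In INH against EXC, Sdha (0.32 ± 0.09) and Cox7b (0.31 ± 0.08) were higher and Ndufb4 (-0.42 ± 0.11) and Ndufs3 (-0.39 ± 0.11) lower, while 24.2% and 21.5% of all genes were called and per nucleus 12 members were lower and none higher. Without HF2, 6 members were higher, without HF1, 4 were lower, and with library totals 10 were higher and 2 lower (member median 0.13, all genes 0.12). Of the 13 regulators, 2 were higher in INH, Esrrg (2.06) and Ppargc1a (0.87), and 3 were lower, Gabpa (-0.45) and Gabpb1 (-0.35), which encode the GABP subunits, and Nrf1 (-0.36).

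Among inhibitory neurons, LHX6-like nuclei (211, the group that includes somatostatin and parvalbumin cells) were compared with ADARB2-like nuclei (185). Of 76 members, 6 (7.89%) were higher in LHX6 and none lower, with 9.43% of 7148 genes higher and 9.16% lower, while 38 were higher per nucleus and DESeq2 called none. Per nucleus the median was 0.44 over the members and 0.28 over all genes, and with TMM it was 0.16 and 0.01. At an unadjusted p under 0.05, edgeR gave 13 members and 2002 of 7148 genes. The 6 included Sdhd (1.06 ± 0.31), Uqcrfs1, the Rieske iron-sulphur protein of complex III (0.67 ± 0.22), and Cox7b (0.58 ± 0.13). Cox7b had 199, 166, 227 and 153 CPM in LHX6 and 145, 106, 148 and 99.4 CPM in ADARB2, without overlap. Leaving out MF1 gave 3 members and leaving out MF2, HF1 or HF2 gave 2. Of the 3 named, Cox7b kept its call without any 1 library and Uqcrfs1 lost it in each case (0.64 to 0.69). Sdhd lost its call without MF1 (1.10, adjusted p = 0.0665), MF2 (0.93, adjusted p = 0.0974) or HF2 (1.03, adjusted p = 0.0643), and without the library block (1.02). In this contrast Ppargc1a (2.05 ± 0.15), Esrrg (1.22 ± 0.14) and Ppargc1b (1.01 ± 0.22) were higher, and 3 of 4 haemoglobin genes were lower in LHX6.

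Tissue-restricted isoforms of complex IV were scarce but uneven. Cox6a2, the heart and muscle partner of Cox6a1 and known from parvalbumin interneurons, had 33, 14, 19 and 7 UMIs in the INH of MF1, MF2, HF1 and HF2, and 2 to 12 in all libraries together of each other type. Of these INH counts, LHX6 held 22, 6, 15 and 6 UMIs and ADARB2 4, 3, 1 and 0. It did not pass the filter for the test over all types, so that no p is given. The gene (chr7:128205435-128206387, minus strand, GRCm38) lies inside Itgad on the other strand, and Itgad was at 64.3 CPM in ODC and 2.65 CPM in INH.

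Cox6b2, the testis isoform of Cox6b1, held 28 UMIs in AST, 15 in OPC and 28 in ODC, but 2 in CA1, 1 in CA3 and 16 in DG-M. Its levels were 11.3, 16.4, 7.82 and 11.3 CPM in ODC and 0 to 1.57 CPM in the 3 excitatory types, with no overlap. It was called higher in ODC, AST and OPC. With levels near 0 in the 3 excitatory types, it passed the low-count filter through types where it was higher. These calls are therefore no separate support, and no p is given. The size of the fitted difference is not given because it rests on so few UMIs in CA1 and CA3. Cox7b2, the paralog of Cox7b, held 47 UMIs in AST, 170 in EXC, 7 in OPC and 0 in ODC, which at a floor of 3 counts over the group makes ODC at least 4.43-fold lower than EXC and at least 2.91-fold lower than OPC. The second call was lost without MF1 (adjusted p = 0.0537). Its 1 UMI in MG gave a ratio to EXC of 0.114 (95% counting interval 0.00287 to 0.644). In AST it was higher (1.45 ± 0.30, with 20.4, 11.1, 6.32 and 22.7 CPM), and per nucleus the difference was -0.58.

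The remaining untested members were near 0. Over the 9 types together, Cox7a1 held 41 UMIs, Ndufa4l2 19, Cox4i2 12, Cox8b 4 and Cox8c 0. In 23 mural-like nuclei of the vessel wall, Ndufa4l2, the hypoxia-linked paralog of Ndufa4, held 6, 2, 6 and 1 UMIs in the 4 libraries, and Cox4i2 1, 0, 1 and 1. That is 15 of the 17 Ndufa4l2 UMIs of all 131 vascular nuclei.

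**Figure D3:**
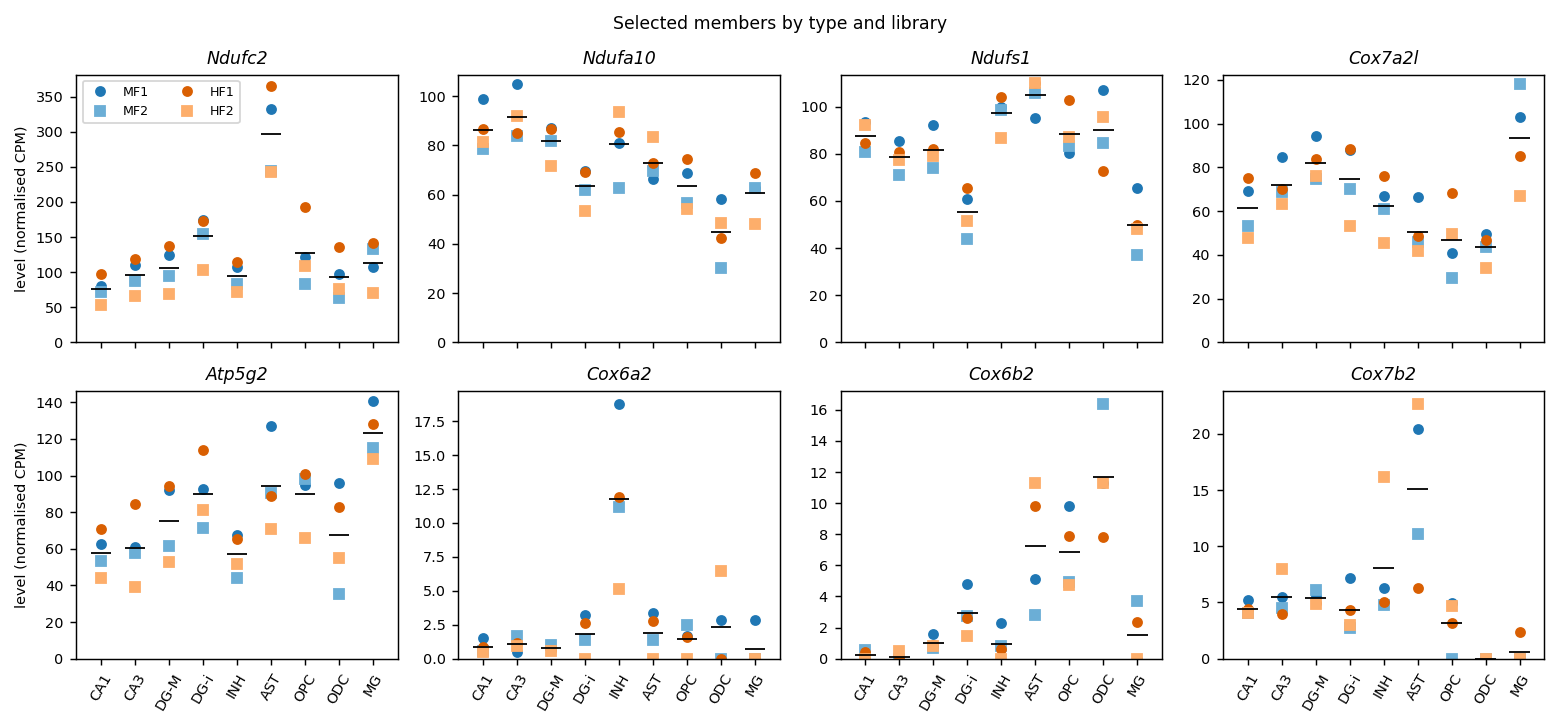
Level of 8 members (vertical axis, TMM-normalised CPM) in 9 types (horizontal axis). Points are libraries and lines are means. Ndufc2 is highest in AST (297 CPM), although per nucleus it was lower there than in EXC (-0.33 on the log2 scale), Cox6a2 in INH (11.8 CPM), Cox6b2 in ODC (11.7 CPM) and Atp5g2 in MG (123 CPM), where per nucleus it was lower than in EXC (-1.35), and Cox7b2 is at 0 in ODC.

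Gene length moved with the differences of some contrasts. Across 77 members, the Spearman correlation of gene length with the log2 difference to EXC was -0.50 in MG, -0.38 in OPC, -0.30 in ODC and -0.16 in AST, and over all genes -0.22, -0.07, -0.12 and -0.14. In DG-M against CA1 it was -0.34 (all genes -0.15) and in DG-i against DG-M -0.30 (-0.08). In CA3 against CA1 it had the opposite sign, 0.30 (all genes 0.00), and it was 0.07 in INH (0.07), 0.07 in LHX6 against ADARB2 (75 members, all genes -0.04) and -0.05 in ODC against OPC (-0.07). These points share libraries and are given as a description. Of the 39 members at or under the median length of 7.67 kb, 21 were higher in MG and 1 lower, and of the 38 longer ones 9 were higher and 3 lower. In AST 35 of 39 shorter and 31 of 38 longer members were higher. Intronic reads count in nuclear libraries, and the part of length in the results was not tested.

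Open chromatin at the starts of the members was common. ATAC peaks within 500 bp of a start were found in all 4 libraries for 78 of 83 annotated members (94%), and for 66.7% of 21487 protein-coding genes. Of 79 members with a region, 26 shared it with another protein-coding gene, so that their counts cannot be assigned to 1 gene. Whether a promoter named below is among these 26 is not reported here. In AST against EXC, 22 of 78 promoters (28.2%) were higher and 10 (12.8%) lower, against 32.1% and 35.2% of all promoters, both shares below the background. In MG 22 were higher and 16 lower (31.4% and 41.3% of all), in ODC 12 and 8 (26.8% and 32.4%), and in DG-i against DG-M 2 and 8 (13.5% and 14.8%). The DG-i counts fell to none higher without MF1 or HF2, to 1 higher and 2 lower without HF1, and the ODC lower count to 5 without MF2.

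Chromatin and RNA did not move in step at single members. All 22 members whose promoter was higher in AST were higher in RNA there, but so were 6 of 9 members with RNA values whose promoter was lower, where 67 of all 78 members tested (85.9%) were higher in RNA. The rank correlation over 76 members was 0.17 in AST, 0.13 in ODC, 0.04 in MG and 0.22 in DG-i. The promoter of Ndufc2, printed above, had 42, 46, 42 and 36.1 CPM in AST and 27.5, 41.5, 39.5 and 36.5 CPM in CA1, a log2 difference to EXC of 0.22 ± 0.15 that did not pass. The promoter of Cox6b2 was higher in ODC (1.38 ± 0.27, with 14.9, 23.1, 23.3 and 37.6 CPM, against 10.5 to 18 in CA1) and in MG (0.99 ± 0.28). The promoter of Atp5g2 was higher in MG (0.31 ± 0.09) and AST (0.21 ± 0.08), and that of Ndufs6 in MG (0.45 ± 0.13).

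Ndufa4 had a more open promoter in AST (0.60 ± 0.09), ODC (0.63 ± 0.10) and MG (0.69 ± 0.10), with 93.1 to 103 CPM in AST and 55.4 to 75.5 CPM in CA1. Ndufb4 led in AST (0.65 ± 0.09). Ndufa1 showed the reverse in AST (-1.30 ± 0.24), MG (-1.02 ± 0.25) and ODC (-0.87 ± 0.26), at 7.71 to 10.8 CPM in AST and 17.2 to 33.8 CPM in CA1. Uqcrq was lower in AST (-0.59 ± 0.08) and ODC (-0.71 ± 0.09). Cox7a1, almost silent in RNA, had a promoter higher in MG (1.78 ± 0.26, with 41.8, 27, 33.4 and 34 CPM, against 6.86 to 14.8 in CA1).

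The maternal diet comparison asked whether excess folic acid moved these genes. No member was called between HF and MF in any type or in all nuclei (edgeR, 75 to 81 members tested), and DESeq2 called none either. Of all genes tested, 0% were called in all nuclei, CA1, CA3, DG-M, DG-i, AST and ODC, 0.00909% in INH, 0.0792% in OPC and 0.0176% in MG. The median log2 difference of the members, HF minus MF, was -0.02 in all nuclei, 0.06 in CA1, -0.03 in CA3, -0.07 in DG-M, -0.01 in DG-i, -0.03 in INH, -0.06 in AST, 0.16 in OPC, 0.01 in ODC and 0.04 in MG. The spread between libraries of 1 diet was larger: on the log2 scale of the summed level, HF1 exceeded HF2 by 0.51 to 0.80 and MF1 exceeded MF2 by 0.17 to 0.42 in the 9 types, while HF minus MF lay between -0.11 and 0.09. With 2 libraries against 2, a two-sided exact permutation test of the summed level cannot give a p below 0.333, so that no such test could pass here.

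Single members reached an unadjusted p under 0.05 in 3 types, as 1 of 76 in DG-i (all genes 166 of 9389), 4 of 76 in OPC (192 of 7574) and 1 of 75 in MG (143 of 5695), and in all nuclei 0 of 81 members did against 199 of 18373 genes. These were Ndufc1 in DG-i (0.73 ± 0.31), Ndufa1 in MG (0.92 ± 0.41), and in OPC Ndufv3 (0.80 ± 0.37), Cox7a2l (0.74 ± 0.36) and Ndufc2 (0.58 ± 0.29), besides Ndufa1 (0.73 ± 0.36), and all were higher in HF with adjusted p-values of 0.999 to 1. Ndufa1 in OPC had 55.7 and 24.5 CPM in the MF libraries and 106 and 23.6 CPM in the HF libraries, which overlap. The direction of the members' median depended on which libraries were used. In the 9 types it was -0.58 (DG-i) to -0.35 (CA1) without HF1, 0.12 (AST) to 0.39 (OPC) without HF2, 0.13 (CA1) to 0.34 (OPC) without MF1, and -0.29 (AST) to 0.06 (MG) without MF2, where it was below 0 in 7 of 9 types. The counts of members at an unadjusted p under 0.05 depended on the libraries used as well. They are not given, since each such fit leaves 1 library in a diet. Over all genes the median of these fits stayed between -0.02 and 0.03 in the 9 types. The difference of the diet effect between DG-i and DG-M called no member of 77 (0.016% of all genes), with a median of 0.03. With a median standard error per member of 0.23 to 0.35 in these types, a change of the size of the medians was not detectable at a single member with 2 libraries per diet. What shift of the whole set could be detected was not tested.

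**Figure D4:**
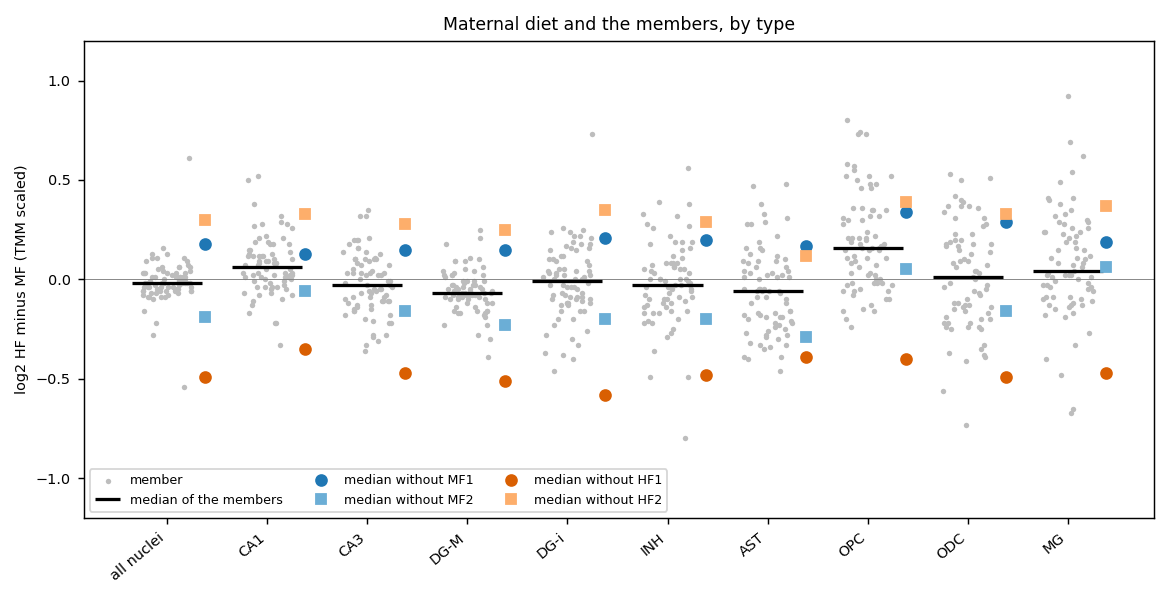
Log2 difference HF minus MF of each tested member (grey points, vertical axis, TMM-scaled) in all nuclei and 9 types (horizontal axis), with the member median (black line) and the median without each library (coloured points). Medians lie between -0.07 and 0.16, and without HF1 they fall to -0.35 or lower while without HF2 they rise to 0.12 or higher.

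At the promoters the diet comparison called no member either, of 79 in all nuclei or in DG-M, with 0.0159% and 0.0511% of all promoters called. At an unadjusted p under 0.05 stood Ndufa11 (0.46 ± 0.09) and Ndufb8 (0.17 ± 0.06) in all nuclei and Ndufs5 (0.40 ± 0.14) and Ndufb4 (0.28 ± 0.11) in DG-M, with adjusted p-values of 0.974 and 0.997, beside 561 of 18925 and 665 of 17629 promoters of all genes.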

How the data were processed

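The authors deposited UMI counts per gene and counts per ATAC peak for 4 multiome libraries, made with Cell Ranger ARC 2.0.1 on mm10 per the submitters' processing notes and with no normalization. The members and lists used here were chosen with earlier results of these data known. Nuclei were kept where 500 to 7000 genes were detected, where mitochondrial UMIs stayed under 2% and where ATAC counts lay between 1000 and 70000, and were clustered with scanpy 1.11.5 (Leiden resolution 0.8, and 0.5 within inhibitory and vascular nuclei) without the members, ribosomal, mitochondrial and haemoglobin genes. Clusters with a median Scrublet score over 0.05 were set aside. Counts were summed per library and type and tested over all genes with edgeR 4.0.16 in R 4.3.3 (quasi-likelihood F test, TMM, filterByExpr, library as a block between types, adjusted p under 0.05 by Benjamini-Hochberg and at least 1.2-fold, no fold minimum for ATAC). DESeq2 1.42.0 was an alternative. ATAC regions were merged over libraries (253724) and assigned to gene starts within 500 bp. Only the edgeR step was run on simulated counts, for AST against EXC and for diet in DG-M, AST and OPC. The simulated libraries differed by depth alone, without the library differences seen here, and the outcome is not reported. Intervals and floors cover counting error only. For each type contrast, the 4 called members with the largest difference in each direction are named, with the paralog groups, complex II and the core subunits of complex I, and for diet up to 3 members by unadjusted p in each direction. Cox6a1 and Ndufa7, the promoters, list genes and Ndufa1 in the diet comparison of OPC that fall outside this rule were chosen after their values were seen. Some genes that the rule names are not reported here.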

Additional observations from a re-analysis of the deposited data

How the results depend on the processing

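Of 53 RNA differences named for their size, 47 kept direction and call with DESeq2, 37 without the library block, 44 with library totals in place of TMM and 28 per nucleus, and 16 reversed per nucleus. Of 59 other calls between types, on paralogs, complex II, core subunits, Cox6c and Ndufa7, 57 kept direction and call with DESeq2, 24 without the library block, 59 with library totals and 3 per nucleus, and 51 reversed per nucleus. The cause of the changes was not tested. Per nucleus the median of all genes shifted as well, as given above. The member median relative to that of all genes was 0.49 in AST, 0.18 in OPC, 0.02 in ODC, 0.30 in MG and 0.03 in DG-i per nucleus. With TMM it was 0.51, 0.19, 0.04, 0.34 and 0.04 in the same order. In AST without the library block, Atp5g1 (adjusted p = 0.151) and Atp5g3 (0.14) were among 5 of these calls lost. Counted per nucleus, the members called higher and lower were 0 and 77 in DG-i against DG-M, 72 higher in CA3 against CA1, 0 and 22 in DG-M against CA1, 0 and 12 in INH, 1 and 77 in AST, OPC and ODC, 0 and 77 in MG, 3 and 2 in ODC against OPC, and 38 higher in LHX6 against ADARB2. Per nucleus the 16 named for their size that reversed were in AST Ndufc2 (-0.33), Cox7b2 (-0.58) and Ndufa13 (-1.14), in DG-i Ndufc2 (-0.52), Ndufs5 (-0.59) and Ndufa13 (-0.65), in OPC Ndufb7 (-1.01), Ndufa13 (-1.05) and Ndufa2 (-1.12), in ODC Ndufa3 (-0.69), Ndufs8 (-0.82) and Sdhc (-0.87), and in MG Atp5g2 (-1.35), Ndufs8 (-1.46), Ndufa6 (-1.67) and Ndufs6 (-1.68). The other 51 included Cox4i1 (-1.43), Cox6a1 (-1.21), Sdha (-1.44) and Ndufs7 (-1.37) in AST, Cox4i1 in DG-i (-0.77) and Cox6a1 in ODC (-1.09). With library totals only, 42 members were higher and 1 lower in DG-i, 3 higher in CA3, 65 in DG-M, 10 in INH, 73 higher and 1 lower in AST, 53 higher and 0 lower in OPC, 71 higher and 1 lower in MG, and 0 higher and 51 lower in ODC against OPC, Ndufa10 in MG stood at 0.00, and the median of all genes moved most in MG, from -0.12 to 0.40. Without the library block, 0 members were higher in CA3, 1 in DG-M, 2 in DG-i, 1 higher and 1 lower in INH, 2 higher in LHX6, 12 in MG, 3 in ODC and 10 in OPC, and 8 were lower in ODC against OPC. Without a fold minimum, 2 were lower in AST, 2 higher in CA3, and 5 higher and 4 lower in INH. DESeq2 called 2 higher in CA3 and 0 in LHX6, and scaling by relative log expression gave 2 in CA3, 1 promoter higher in DG-i and 13 promoters lower in ODC. Without the low-count filter, 3 members and 1 promoter were higher in DG-i. At a higher clustering resolution, 2 were higher and 1 lower in CA3, 1 higher in LHX6 and 2 higher in ODC against OPC, and with the members returned to the clustering genes 2 were higher and 1 lower in CA3. Without nuclei over the doublet score, 2 were lower in AST, 4 lower in INH and 4 higher in ODC. The alternative planned as a finer clustering of excitatory nuclei was applied to inhibitory and vascular nuclei, where such a second step was used.

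Leaving out 1 library at a time gave 4 to 9 members higher in DG-i, 0 to 2 higher and 0 to 1 lower in CA3, 22 to 44 higher in DG-M, 2 to 6 higher and 2 to 4 lower in INH, 1 to 2 lower in AST, 15 to 25 higher and 0 to 4 lower in OPC, 3 to 6 higher in ODC, 1 to 3 lower in MG, 0 to 1 higher and 10 to 20 lower in ODC against OPC, 2 to 3 higher in LHX6, 0 to 2 promoters higher and 2 to 8 lower in DG-i, and 5 to 9 promoters lower in ODC. With the replicate number as a block in the diet comparison, 0 members were called in any type and medians were -0.10 to 0.17. Over genes, the deviation of replicate 1 from its diet mean (log2 CPM) correlated between MF and HF at 0.07 (MG) to 0.24 (ODC). The labels name no shared litter or day and there are 2 pairs only, so that the replicate numbers were not taken to pair the libraries. Of the 9 types, MG had the fewest UMIs per nucleus (1853) and the fewest genes tested by diet (5695).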

Other observations

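A further 3 groups of nuclei entered no contrast. Committed oligodendrocyte precursor-like nuclei (373, marked by Enpp6, Bmp4 and Gpr17) held 31.8 UMIs of the 84 genes and 5512 UMIs of all genes per nucleus, with 33.9 (MF1), 26.5 (MF2), 40.5 (HF1) and 21.6 (HF2). OPC held 25.1 of 3302 and ODC 27.2 of 4857 on the same scale. Cajal-Retzius-like nuclei (98, led by Reln, Ndnf and Trp73) held 24.5 of 2949, and vascular-like nuclei (131) held 19.5 of 1879, with 12.9 in HF2 to 26.4 in HF1. HF1 was above HF2 in each of the 3 groups. These values have no test.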
